A study of Mus musculus with 6 samples.

Results

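The genes described here encode the constitutive subunits of the proteasome and its activators, inhibitor and assembly factors. They were chosen by name: the probe set is annotated to exactly 1 gene, and the symbol starts with Psma, Psmb, Psmc, Psmd, Psme, Psmf or Psmg followed by a digit, without the interferon-inducible subunits Psmb8, Psmb9 and Psmb10. The rule gave 46 of the 18193 genes with such a probe set, measured by 99 probe sets. Psme2, an activator subunit, is read by a probe set that also matches Psme2b, so it is not analysed here. The name rule also took in Psmc3ip, a meiotic recombination factor, and Psme3ip1, which encodes a partner of an activator subunit. Neither is a proteasome subunit. Psma8 and Psmb11 are subunits known from testis and thymus.

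The proteasome is the large protease that degrades ubiquitin-tagged proteins. Its core particle is a stack of α and β rings, with the proteolytic sites in 3 of the constitutive β subunits. A regulatory particle caps the core: its base holds a ring of ATPases that unfold substrates, and its lid removes ubiquitin. Hepatocytes rely on this machinery for the turnover of short-lived enzymes, of apolipoprotein B and of misfolded secretory proteins. The transcription factors encoded by Nfe2l1 and Nfe2l2 are known to drive proteasome genes.

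Livers came from male C57BL/6 mice, an inbred strain, started on their diets at 8 weeks of age. The high-fat group ate a diet with 60% of its calories from fat for 12 weeks, and the other group ate a normal diet for the same time. Each diet had 6 mice, whose RNA was pooled by 2, read here as 3 pools per diet with 1 array each. The study looked for genes linked to disturbed lipid handling in the obese liver. Replicates are arrays of pooled mice (n = 3 per diet), so p-values measure the spread between pools, and precision is limited by having 3 arrays a diet.

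Levels are log2 RMA values, and each difference is the high-fat mean minus the normal diet mean, followed by ± its standard error from limma. Calls use limma's p adjusted by Benjamini-Hochberg over 14071 genes with a level above the 40th percentile of an array in at least 3 arrays, at a threshold of 0.05. Of all these genes 7.6% were called: 5.87% rose and 1.73% fell under the high-fat diet. The share of higher genes among the calls was 77.2%, and 66.6% when the arrays were quantile-normalized again. The hepatocyte markers Alb, Ttr, Apoa1, Apob, Tat, Cps1 and Ass1 all passed the level filter and 0 of them were called. Alb and Ttr differed by 0.073 and 0.13, and Tat and Cps1 by -0.26 and -0.28, each with the diets apart. Ass1 was read close to the filter, at 3.66 to 3.99. Of 7 macrophage markers 5 rose (Vsig4, Cd5l, Adgre1, Csf1r and Cd68). The others, Clec4f and Marco, differed by 0.071 and -0.059, overlapped between the diets and were not called. The macrophage list summed to 3268 to 3546 intensity units on high-fat arrays and 1996 to 2393 on normal diet arrays. Of 6 stellate cell markers 2 rose, with sums of 2028 to 2350 on high-fat arrays and 1404 to 1438 on normal diet arrays. Of 6 endothelial markers 1 rose, with sums of 1063 to 1186 on high-fat arrays and 915.3 to 1050 on normal diet arrays. Among the tested markers of T and NK cells, B cells, neutrophils, cholangiocytes and red cells 0 were called, and both adipocyte markers stayed under the level filter. In whole liver a change in the number of cells of a type and in the RNA per cell cannot be told apart. The part of these cell types in the differences below was not tested.

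Both normal diet 1 and normal diet 3 stood apart from the other arrays in some measures. On normal diet 1 the Gapdh control probe sets read 0.36 higher at the 3′ than at the 5′ end, which gauges how intact the RNA was, against -0.19 to 0.0086 on the high-fat arrays and -0.032 and 0.006 on the other normal diet arrays. The β-actin controls gave 1.59 there, against 1.02 to 1.23 on the high-fat arrays and 1.22 and 1.12 on the other normal diet arrays. Normal diet 1 held the lowest of the 6 levels for 26 of the 46 members, although it was the lowest array for 15.2% of all tested genes. Normal diet 3 was the lowest array for 28.0% of all tested genes and for 5 of the 46 members, and the other 4 arrays for 12.6% to 14.9% of genes. The part of RNA integrity in the results was not tested.

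All 46 genes passed the level filter and were tested. Psma7, an α ring subunit, and Psmd13, a lid subunit, rose under the high-fat diet, and 0 genes fell. The 2 calls are 4.35% of the 46, no larger than the share of all tested genes given above. At an unadjusted p below 0.05, 9 were higher (against 18.1% of all tested genes) and 2 were lower (against 9.46%). With 1 probe set per gene no difference was large: the outermost bound of any 95% confidence interval was 0.91, a 1.88-fold change, for Psmd10. A Psmf1 probe set that does not stand for its gene, described below, had an interval from 0.37 to 1.04.

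Most members lay slightly higher on the high-fat arrays. The difference was above 0 for 36 of the 46 genes and below 0 for 10, while 50.5% of all tested genes were above 0. The median difference was 0.14, against 0.003 for all tested genes. High-fat and normal diet arrays were fully apart for 16 members that were higher (34.8%), against 21.1% of all tested genes. They were also apart for 2 members that were lower, Psmc2 and Psmb11, against 14.7% of all tested genes. These shares were not matched for level, and the differences of all tested genes varied with level, as given below.

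**Figure D1:**
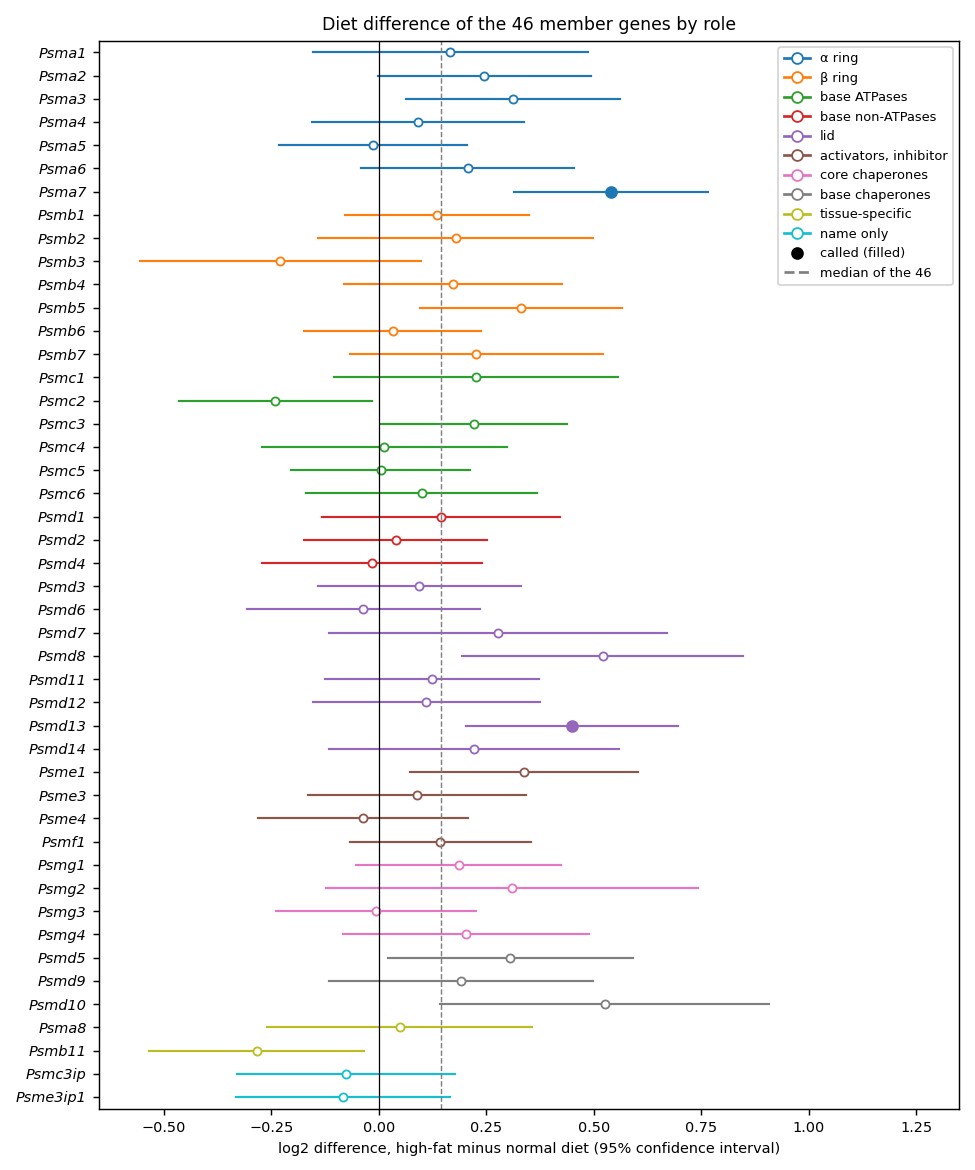
Log2 difference, high-fat minus normal diet, of each of the 46 genes with its 95% confidence interval from limma, grouped and coloured by role, n = 3 arrays per diet. Filled points are the 2 called genes, Psma7 and Psmd13, and the dashed line is the median of 0.14.

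The size of the difference varied with level. As deposited, the median difference was -0.060 for tested genes with a mean level below 6, 0.094 for levels of 6 to 8, 0.16 for 8 to 10 and 0.11 above 10. The members sit mainly in the upper classes, with 22 at 8 to 10 and 11 above 10. Their medians in these classes were 0.13 and 0.17, and 0.19 for the 10 members at 6 to 8. Of all tested genes at 8 to 10, 67.9% had a difference above 0. Without normal diet 1 the member median at 8 to 10 was 0.045, while that of all tested genes in the class was 0.16. The pattern over levels depended on scaling. After another quantile normalization the median of all tested genes was -0.046 below 6, -0.025 at 6 to 8, 0.028 at 8 to 10 and 0.063 above 10, and that of the members at 8 to 10 was -0.0068. After cyclic loess the medians of all tested genes were -0.0063, 0.017, 0.032 and -0.020 in these classes, and that of the members at 8 to 10 was -0.0018. These classes were formed after the data were seen.

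Array by array, the members deviated from their own 6-array means by a median of 0.042 to 0.079 on the high-fat arrays, and by -0.14, -0.062 and 0.018 on normal diet 1, 2 and 3. Over all tested genes these medians ran from -0.0095 to 0.022. Normal diet 3 thus lay nearer to the high-fat arrays than the other normal diet arrays did. Without normal diet 1 the median difference was 0.076, 36 of the 46 members were above 0, and Psma7 alone was called. Without normal diet 3 the median was 0.18, 41 were above 0, and 3 were called.

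**Figure D2:**
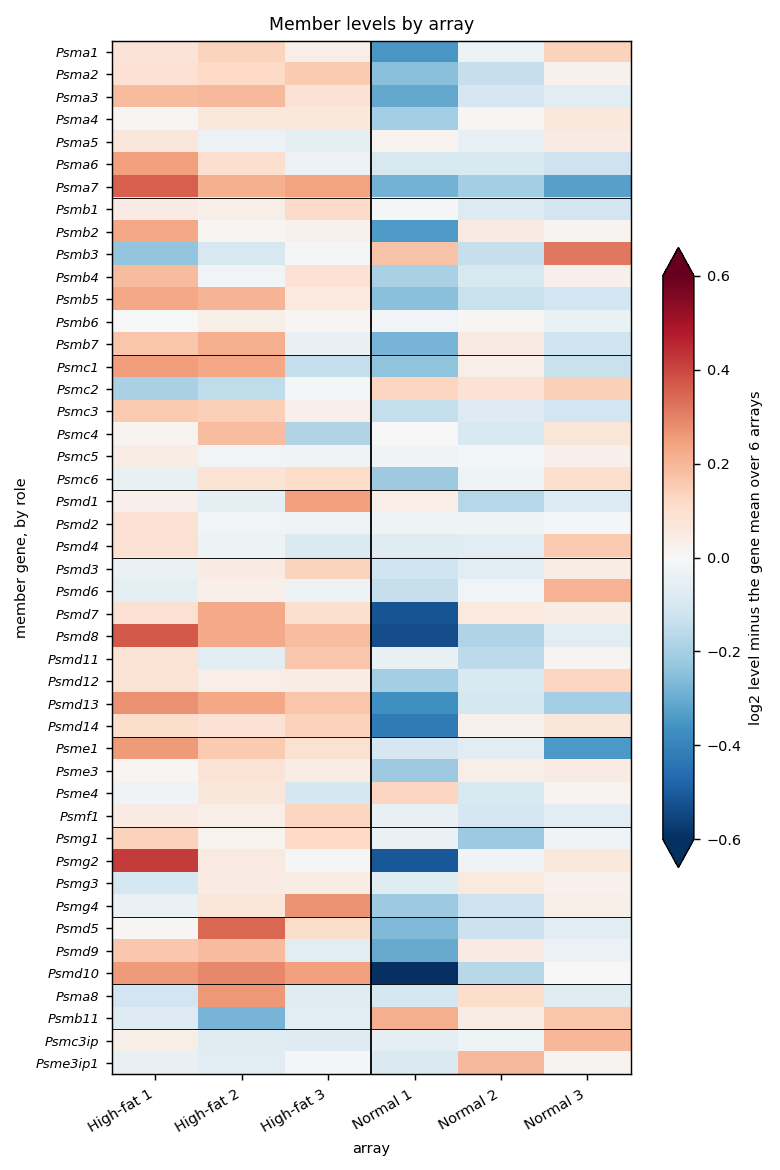
Log2 level of each member gene (rows, by role) on each array (columns) minus the gene's mean over the 6 arrays, high-fat arrays on the left. The column of normal diet 1 is the bluest, with the lowest of the 6 levels for 26 of 46 genes.

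In the α ring, the gate through which substrates enter the core, 1 of 7 subunit genes rose and 0 fell, with a median difference of 0.21. Psma7 was at 9.30, 9.15 and 9.18 on the high-fat arrays, against 8.66, 8.74 and 8.61 on the normal diet arrays. The groups did not overlap, and the difference was 0.54 ± 0.10, or 1.45-fold (limma adjusted p = 0.0207). Its second probe set pointed the same way with a smaller size (0.29 ± 0.10, adjusted p = 0.187 over all probe sets). The Psma7 call was lost with another quantile normalization (0.41, adjusted p = 0.0505), with probe set names lacking a suffix (0.29, adjusted p = 0.155) and without any 1 high-fat array (adjusted p from 0.0836 to 0.278). Without high-fat 1 or 2 the second probe set had the higher mean and took its place, at 0.31. Across its alternatives the adjusted p ran from 0.0159 to 0.278.

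The other α genes did not pass. Psma3 was at 10.82, 10.83 and 10.72 on the high-fat arrays and 10.33, 10.53 and 10.57 on the normal diet arrays, a difference of 0.31 ± 0.11 (limma adjusted p = 0.114). Psma2 and Psma6 also had arrays that did not overlap between diets, with differences of 0.24 and 0.21. Psma1, Psma4 and Psma5 overlapped, at 0.17, 0.091 and -0.014. Without normal diet 1, Psma1 and Psma4 were at 0.033 and 0.012. The 7 estimates of the ring spanned -0.014 to 0.54.

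Psma7 and Psmd13 are the called genes, the probe sets of Psmf1 differed in the size of the change, and Psmb5 is a catalytic subunit. The promoter windows of these 4 members are shown in this order, to let their sequence be read beside their values. They are RefSeq windows of GRCm38.p6, 250 bases before to 50 after the start, 5′ to 3′ on the gene's strand: chr2:180042415-180042714 (minus strand), chr7:140882144-140882443 (plus), chr2:151741261-151741560 (minus) and chr14:54617946-54618245 (minus). Capitals mark matches on either strand to any of 5 motifs: the ETS core CCGGAA, the CCAAT box CCAAT, the GC box GGCGGG, the AP-1 site TGACTCA and the antioxidant response element TGACNNNGC, bound by the Nfe2l1 and Nfe2l2 products.
Psma7: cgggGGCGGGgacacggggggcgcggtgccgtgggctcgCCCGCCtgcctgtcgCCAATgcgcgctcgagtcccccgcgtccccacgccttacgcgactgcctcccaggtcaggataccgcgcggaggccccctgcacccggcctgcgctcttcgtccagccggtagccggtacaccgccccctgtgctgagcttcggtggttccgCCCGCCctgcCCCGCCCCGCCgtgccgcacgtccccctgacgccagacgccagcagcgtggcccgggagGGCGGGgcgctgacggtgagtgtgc
Psmd13: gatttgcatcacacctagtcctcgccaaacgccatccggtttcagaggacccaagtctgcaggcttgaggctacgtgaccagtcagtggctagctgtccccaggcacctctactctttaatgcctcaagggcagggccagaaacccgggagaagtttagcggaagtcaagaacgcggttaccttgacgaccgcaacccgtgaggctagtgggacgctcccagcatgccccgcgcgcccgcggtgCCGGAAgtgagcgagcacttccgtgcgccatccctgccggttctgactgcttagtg
Psmf1: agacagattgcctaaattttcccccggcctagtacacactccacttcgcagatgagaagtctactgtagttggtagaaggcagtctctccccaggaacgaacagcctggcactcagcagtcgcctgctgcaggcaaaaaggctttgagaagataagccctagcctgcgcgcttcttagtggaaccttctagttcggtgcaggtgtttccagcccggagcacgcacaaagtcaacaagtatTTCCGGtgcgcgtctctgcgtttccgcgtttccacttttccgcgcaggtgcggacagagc
Psmb5: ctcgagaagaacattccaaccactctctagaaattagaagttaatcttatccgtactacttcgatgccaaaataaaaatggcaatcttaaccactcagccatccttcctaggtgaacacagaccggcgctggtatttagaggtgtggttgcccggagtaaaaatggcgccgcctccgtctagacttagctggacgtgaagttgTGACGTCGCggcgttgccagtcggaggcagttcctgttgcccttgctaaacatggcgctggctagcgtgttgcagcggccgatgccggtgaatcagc

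Psma7 has 6 GC box matches and a CCAAT match, in a window with 77% G and C. Psmd13 and Psmf1 each have an ETS match close before the start, 6 and 10 bases from it. Psmb5 has an antioxidant response element match, TGACGTCGC, 47 bases before the start. This element was also matched in windows of Psmb6, Psmc6, Psmd12, Psmd9 and Psme4. These genes differed by 0.032, 0.099, 0.11, 0.19 and -0.036, each with overlap between the diets. Of the 46 members 38 had at least 1 window in the table, 41 windows in all. The ETS core was present in 23 of the 41 windows (56.1%), against 14.9% of all 32851 windows, and the GC box in 28 (68.3%), against 35.3%. The CCAAT box was in 36.6% of member windows and 37.4% of all windows, the antioxidant response element in 14.6% and 12.4%, and the AP-1 site in 2.44% and 5.2%. Median G and C content was 59% in the member windows and 52.7% in all windows, and matches of different motifs overlapped once among the member windows. Of the 2 called genes, Psmd13 has the ETS core and neither has the antioxidant response element. A match describes letters in these windows and is not a measured binding site. The motifs were chosen with the results known.

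In the β ring, 0 of 7 constitutive subunit genes were called, with a median of 0.17. Psmb5, which carries the chymotrypsin-like site, was at 10.49, 10.46 and 10.31 on the high-fat arrays, against 10.01, 10.12 and 10.14 on the normal diet arrays. All high-fat values lay above, but the difference of 0.33 ± 0.10 did not pass (limma adjusted p = 0.0891). Psmb7, which carries the trypsin-like site, was at 9.39, 9.44 and 9.18 on the high-fat arrays and 8.95, 9.28 and 9.11 on the normal diet arrays. Its groups overlapped (0.23 ± 0.13, limma adjusted p = 0.280), and it was at 0.15 without normal diet 1. Psmb6, which carries the caspase-like site, was at 9.99, 10.02 and 10.00 under the high-fat diet and 9.97, 9.99 and 9.94 under the normal diet. It was among the steadiest members, at 0.032 ± 0.088 with a 95% confidence interval from -0.17 to 0.24. The differences between the 3 catalytic genes were not tested.

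Psmb3, a structural β subunit, had the lowest estimate of the ring. It was at 10.42, 10.56 and 10.65 on the high-fat arrays, against 10.83, 10.52 and 10.97 on the normal diet arrays, which overlap (-0.23 ± 0.14, limma adjusted p = 0.321). Its second probe set differed by -0.025. Psmb1, Psmb2 and Psmb4 were at 0.13, 0.18 and 0.17 and were not called. Without normal diet 1, Psmb2 was at 0.053.

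The interferon-inducible subunits that can replace the catalytic ones were not called either. Psmb9 was at 7.18, 7.25 and 7.42 on the high-fat arrays and 6.85, 7.10 and 7.14 on the normal diet arrays (0.25 ± 0.12, limma adjusted p = 0.225). Psmb8 and Psmb10 differed by -0.12 ± 0.12 and -0.15 ± 0.10.

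**Figure D3:**
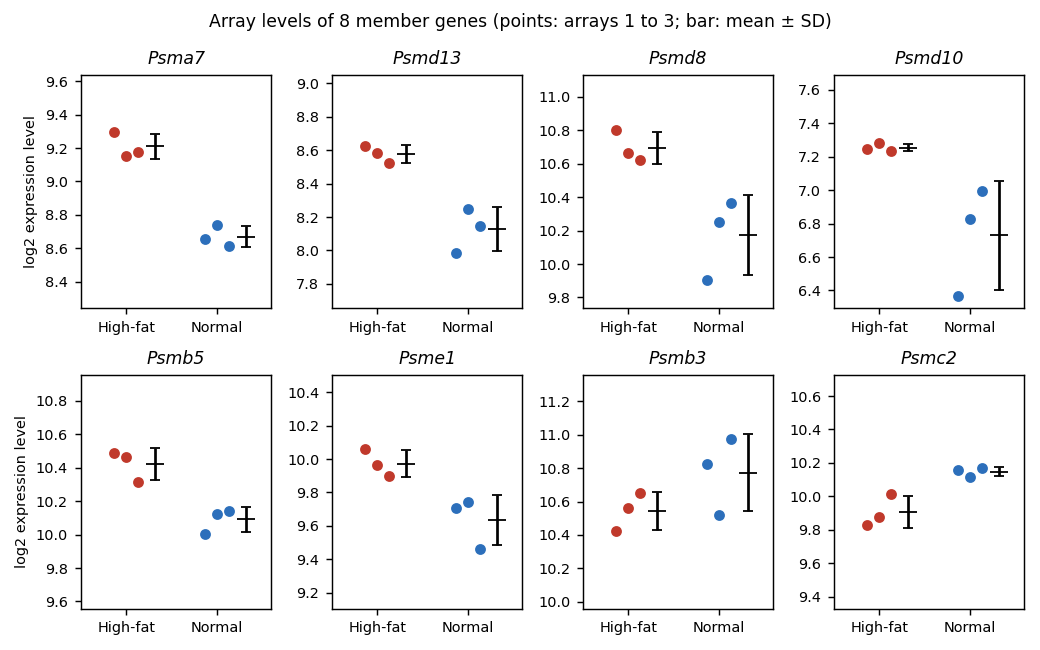
Log2 level on each array for 8 member genes, high-fat left of normal diet in each panel, with each group's mean ± SD (n = 3). The groups are apart in Psma7, Psmd13, Psmd8, Psmd10, Psmb5, Psme1 and Psmc2, and overlap in Psmb3.

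Among the base ATPases, which unfold the substrate, 0 of 6 genes were called, and their median was 0.056. Psmc2 ran against most members: it was at 9.83, 9.88 and 10.01 on the high-fat arrays, against 10.16, 10.12 and 10.17 on the normal diet arrays. All high-fat values were lower, at -0.24 ± 0.10 (limma adjusted p = 0.161), and its second probe set above the filter differed by -0.12. Psmc3 was higher without overlap (0.22 ± 0.093, limma adjusted p = 0.174). Psmc1, Psmc4, Psmc5 and Psmc6 overlapped, from 0.0044 for Psmc5 to 0.23 for Psmc1. Without normal diet 1, Psmc6 was at 0.016 and not 0.099. The scaffold subunits Psmd1 and Psmd2 and the ubiquitin receptor Psmd4 were not called, at 0.14, 0.039 and -0.016.

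In the lid 1 of 8 genes rose and 0 fell, with a median of 0.17. Psmd13 was at 8.63, 8.59 and 8.52 on the high-fat arrays, against 7.99, 8.25 and 8.15 on the normal diet arrays. The groups did not overlap, and the difference was 0.45 ± 0.11, or 1.37-fold (limma adjusted p = 0.0455). Its 3 other probe sets differed by 0.37, 0.31 and 0.19, none called, and with all probe sets tested one by one the adjusted p of the leading one was 0.0580. The Psmd13 call lay close to the threshold: it was lost without any 1 of the 6 arrays (adjusted p from 0.0520 to 0.157), with trend and robust variance (0.0599) and with both other normalizations (0.120 and 0.118). With probe sets without a suffix, another probe set stood for Psmd13, at 0.19 (adjusted p = 0.412).

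Psmd8, another lid subunit, had a similar estimate and missed the threshold. It was at 10.80, 10.66 and 10.62 on the high-fat arrays, against 9.90, 10.25 and 10.37 on the normal diet arrays, without overlap (0.52 ± 0.14, limma adjusted p = 0.0659). Psmd8 passed without normal diet 3 (0.62, adjusted p = 0.0318), with array weights (0.54, adjusted p = 0.0330) and after median centring (0.57, adjusted p = 0.0457). Without normal diet 1, Psmd8 was at 0.39. Its limma adjusted p reached 0.200 with 1 array left out and 0.159 under the other settings. Psmd14, the deubiquitinase of the lid, and Psmd7, its partner, differed by 0.22 ± 0.14 and 0.28 ± 0.17, with normal diet 1 lowest in both at 8.74 and 7.48. Without normal diet 1 they differed by 0.066 and 0.086. Psmd3, Psmd6, Psmd11 and Psmd12 differed by 0.094, -0.036, 0.12 and 0.11, with Psmd3 at 0.057 and Psmd12 at 0.036 without normal diet 1.

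Of the 3 chaperones that assemble the base 0 were called, and their median difference was 0.31. Psmd10, which encodes gankyrin, was at 7.25, 7.28 and 7.24 on the high-fat arrays, against 6.37, 6.83 and 7.00 on the normal diet arrays. The high-fat values were almost identical and the normal diet values spread widely (SD 0.023 and 0.33), and the difference of 0.53 ± 0.16 did not pass (limma adjusted p = 0.0935). Psmd10 passed without normal diet 3 (0.66, adjusted p = 0.0334) and with array weights (0.55, adjusted p = 0.0403), and without normal diet 1 it differed by 0.34. Psmd5 and Psmd9 differed by 0.31 ± 0.12 and 0.19 ± 0.13, but Psmd5 was at 0.16 after another quantile normalization and Psmd9 at 0.0011 with its probe sets averaged. The core assembly chaperones Psmg1, Psmg2, Psmg3 and Psmg4 were not called, at 0.19, 0.31, -0.0067 and 0.20. Psmg2 was at 0.13 without normal diet 1. Pomp, the maturation factor that closes the core, differed by -0.016 ± 0.11.

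The activators open the gate of the core without ATP. Psme1, a subunit of the interferon-inducible activator, was at 10.06, 9.96 and 9.90 on the high-fat arrays, against 9.70, 9.74 and 9.46 on the normal diet arrays. The groups were apart, and the difference was 0.34 ± 0.11 without a call (limma adjusted p = 0.111). Psme3, the nuclear activator, was at 6.76, 6.84 and 6.80 under the high-fat diet and 6.54, 6.79 and 6.80 under the normal diet (0.090 ± 0.11). Psme4, the activator linked to histone degradation, was at 8.93, 9.02 and 8.85 on the high-fat arrays and 9.07, 8.86 and 8.97 on the normal diet arrays (-0.036 ± 0.10). Both overlapped between the diets, and Psme3 was at 0.0035 without normal diet 1.

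Psmf1, which encodes an inhibitor of the core in vitro, gave different answers by probe set. The probe set with the highest mean, which stands for the gene, was at 7.59, 7.58 and 7.67 on the high-fat arrays, against 7.49, 7.44 and 7.47 on the normal diet arrays (0.14 ± 0.090, limma adjusted p = 0.336). A second probe set was at 5.91, 5.88 and 5.87 on the high-fat arrays, against 5.44, 5.17 and 5.30 on the normal diet arrays. It rose by 0.58 ± 0.10 (limma adjusted p = 0.0231 over all probe sets). The last of the 3 above the filter was at 5.46, 5.10 and 5.59 on the high-fat arrays, against 4.78, 4.75 and 4.52 on the normal diet arrays, and rose by 0.70 ± 0.14, with groups again apart (limma adjusted p = 0.0452). All 3 were higher without overlap, and the fourth passed the level filter on 2 of 6 arrays only. The Psmf1 calls were lost without any 1 high-fat array (adjusted p from 0.0515 to 0.163). The call of the last was also lost without any normal diet array and with array weights (adjusted p = 0.0554), and that of the second without normal diet 2 (0.0511).

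Across probe sets, 79 of the 99 passed the level filter, and in a test of every probe set on the array 3 were called higher, the 2 of Psmf1 and 1 of Psma7, and 0 lower. Of all 45037 probe sets 2.33% were called higher and 0.786% lower. Of 19 members with several probe sets above the filter, 10 had differences of both signs. In Psma6, Psmd4, Psmd7, Psmd9, Psmd11, Psme3 and Psmg2 the lowest difference came from a probe set with means below 6. In Psma5, Psmb4 and Psme4 the lowest was small, at -0.014, -0.024 and -0.036. The widest range was that of Psmd11, a lid subunit with 7 such probe sets, from -0.30 to 0.46. One of them was at 9.08, 9.18 and 9.29 on the high-fat arrays and 8.93, 8.67 and 8.58 on the normal diet arrays (0.46 ± 0.12, limma adjusted p = 0.0890), against 0.12 for the one that stands for the gene. Psmc6, a base ATPase, differed by 0.38 (limma adjusted p = 0.0892) and 0.35 with its other probe sets and by 0.099 with its leading one. No probe set position was available here to relate these differences to transcript ends.

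**Figure D4:**
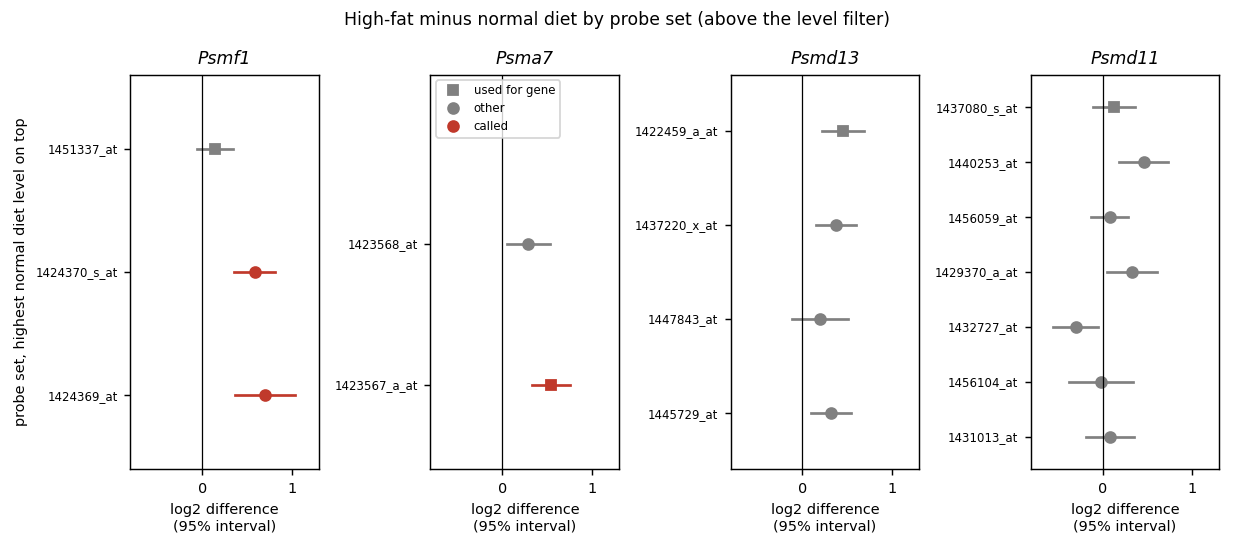
Log2 difference, high-fat minus normal diet, with its 95% confidence interval for every probe set above the level filter of Psmf1, Psma7, Psmd13 and Psmd11. Squares stand for the gene in the test of genes, and red marks the 3 probe sets called among all probe sets, 2 of Psmf1 and 1 of Psma7.

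The tissue-specific subunits and the genes matched only by name were not called. Psmb11 was at 3.64, 3.43 and 3.64 on the high-fat arrays, against 3.93, 3.76 and 3.88 on the normal diet arrays, close to the level filter of 3.48 to 3.59. It was lower without overlap but not called (-0.28 ± 0.11, limma adjusted p = 0.143). Psma8 was close to the filter as well and differed by 0.049 ± 0.13. Psme3ip1 was at 7.72, 7.70 and 7.76 on the high-fat arrays and 7.68, 7.96 and 7.78 on the normal diet arrays, which overlap (-0.084 ± 0.11). Psmc3ip was at 4.43, 4.32 and 4.32 on the high-fat arrays and 4.34, 4.37 and 4.59 on the normal diet arrays (-0.077 ± 0.11). Without these 4 genes the median was 0.17 over 42 genes, of which 35 were above 0.

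With 1 probe set per gene, a few genes that regulate or serve the proteasome had larger estimates than any member. A Psmf1 probe set that does not stand for its gene was at 0.70, within the range of these estimates. Nfe2l2, which encodes the stress factor NRF2, was at 8.65, 8.81 and 8.91 on the high-fat arrays, against 7.91, 8.33 and 7.82 on the normal diet arrays, and rose 1.71-fold (0.78 ± 0.15, limma adjusted p = 0.0288). Nfe2l1, whose product restores proteasome genes when the protease is inhibited, was at 8.09, 8.23 and 8.12 on the high-fat arrays and 8.21, 7.99 and 7.43 on the normal diet arrays. It overlapped and was not called (0.27 ± 0.19, limma adjusted p = 0.395), at 0.048 without normal diet 3 and 0.44 without normal diet 1. The Nfe2l2 call was lost without any 1 high-fat array and without normal diet 1 (adjusted p from 0.0586 to 0.120). Of 7 such regulators 1 rose and 0 fell, against 5.87% and 1.73% of all tested genes. Ngly1, Mafk and Mafg differed by 0.29, -0.21 and 0.64 without a call. Without normal diet 3, Ngly1 was at 0.17 and Mafg at 0.19.

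Of 16 proteasome-associated genes with other names 1 rose and 0 fell, against 5.87% and 1.73% of all tested genes. The 1 call is thus near the share of all tested genes. Zfand5, a proteasome-binding activator, was at 8.51, 8.31 and 8.25 on the high-fat arrays, against 7.78, 7.78 and 7.25 on the normal diet arrays (0.75 ± 0.17, limma adjusted p = 0.0393). The Zfand5 call was lost without any 1 high-fat array (adjusted p from 0.115 to 0.141), with both other normalizations (0.0513 and 0.0543), and when its probe sets were averaged (0.25, adjusted p = 0.165) or limited to those without a suffix (adjusted p = 0.0984). Ubqln2, a shuttle for ubiquitinated proteins, and Uchl5, a deubiquitinase of the base, lay 0.71 ± 0.17 and 0.63 ± 0.17 higher and missed the threshold (limma adjusted p = 0.0525 and 0.0680). Ubqln2 passed with array weights, after median centring and without normal diet 1 or 3 (adjusted p from 0.0244 to 0.0489) and was at 0.17 with its probe sets averaged. Uchl5 passed with its probe sets averaged and without normal diet 2 (0.0352 and 0.0494). Zfand2a differed by 0.53 ± 0.17 (limma adjusted p = 0.0976), and passed without normal diet 2 (0.0349). Adrm1, Paaf1 and Ddi2 are not analysed here.

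The COP9 signalosome resembles the lid in architecture and removes NEDD8 from cullins. Of its 9 genes 0 were called and 7 were above 0, with a median of 0.079. Cops5, its catalytic subunit, differed by 0.35 ± 0.12, and Cops7a, Cops4 and Cops6 by 0.32, 0.31 and 0.18. Of 13 genes of the p97 segregase and its partners, which extract proteins for the proteasome, 0 were called and the median was 0.12. Syvn1, a ubiquitin ligase of the endoplasmic reticulum, was at 7.33, 8.26 and 8.22 on the high-fat arrays, against 8.57, 9.92 and 8.76 on the normal diet arrays. It was lower without overlap but not called (-1.15 ± 0.39, limma adjusted p = 0.113), at -0.73 without normal diet 2. Ubxn4, Derl2 and Faf1 differed by -0.33, 0.42 and 0.25. Of the ubiquitin list only Uba6 was analysed here (-0.26 ± 0.17, not called, and -0.091 without normal diet 2).

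The small upward median of the members depended on scaling. It was 0.029 when the arrays were quantile-normalized again and 0.034 after cyclic loess, when 27 of the 46 genes were above 0 in each case, while the median of all tested genes was -0.029 and 0.0011. After median centring it was 0.19, with 41 above 0 and an all-gene median of 0.050. The 2 calls became 0 after another quantile normalization and 1 after cyclic loess, and 0 without any 1 high-fat array. Calls over all tested genes, in either direction, fell from 1070 to 240, 192 and 148 without high-fat 1, 2 and 3. Without normal diet 1, 2 and 3 they were 1067, 955 and 1245. The loss of calls without a high-fat array was thus not limited to the members.

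**Figure D5:**
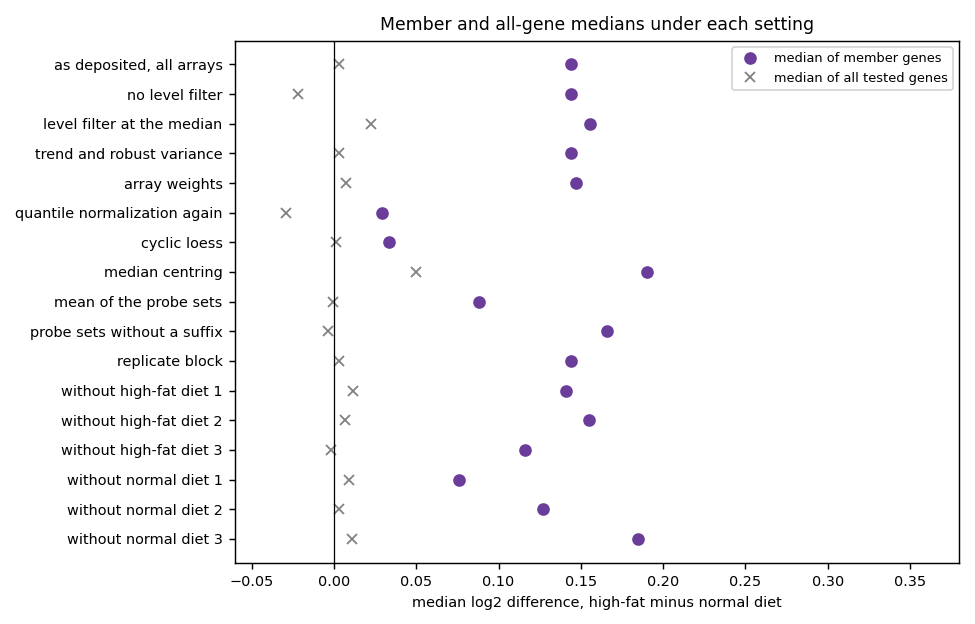
Median log2 difference, high-fat minus normal diet, of the member genes (filled points) and of all tested genes (crosses) under each setting. The member median is 0.14 as deposited, 0.029 and 0.034 after the quantile and cyclic loess steps, and 0.076 without normal diet 1.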

How the data were processed

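Affymetrix mouse arrays measured liver RNA, 3 arrays for each diet. The table deposited by the authors holds log2 levels of probe sets. Per the submitters' processing notes, they come from RMA in Expression Console 1.0. RMA compresses differences near background. Scanner files were not used here.

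Of 45101 probe sets, 64 were controls. A single symbol was annotated to 34945, several to 932, and 9160 are unnamed here. The probe set with the highest mean level stood for its gene, which gave 18193 genes, 14071 of them above the level filter. All 46 member IDs matched a RefSeq gene table (GRCm38.p6), used for names and promoters.

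The diets were compared by limma 3.58.1 (R 4.3.3; lmFit, eBayes, two-sided tests, Benjamini-Hochberg adjustment), over genes and separately over all 45037 probe sets; the code was tested on simulated data. Values per array are given for called members, the 5 largest differences in each direction, the catalytic subunits, the activators and the inhibitor; Psma3 was added after its values were seen. Of each other list up to 4 genes with the smallest p are named, plus Nfe2l1, Nfe2l2, Pomp and the interferon-inducible subunits. Members, lists and this rule were chosen with earlier results of these data known. Alternatives were other level filters, variance models, scalings and probe set choices, a block by replicate number, and 1 array omitted at a time. Summaries used Python 3.11.15, pandas 2.3.3 and matplotlib 3.10.9.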

Additional observations from a re-analysis of the deposited data

How the results depend on the processing

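The 2 higher calls among members became 1 with trend and robust variance, 1 after cyclic loess, 0 after another quantile normalization, 0 with probe sets without a suffix, 0 with a replicate block and 4 with array weights, and ran from 0 to 3 with 1 array left out. No member was called lower under any setting run. The 3 called probe sets became 1 with a replicate block and 0 to 4 with 1 array left out. Over all genes, leaving out 1 array gave 108 to 939 higher and 40 to 306 lower calls, against 826 and 244. The lowest counts came without high-fat 3 and the highest without normal diet 3. Array weights gave 373 lower calls. The median member difference was 0.029 after another quantile normalization, 0.034 after cyclic loess and 0.076 to 0.18 with 1 array left out. The cause of these shifts was not tested.

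Arrays with the same number deviated together only slightly (r of -0.012, 0.036 and 0.10 across genes), against -0.085 to 0.079 for different numbers. The labels do not say that the numbers pair arrays, and with 3 arrays a diet these values cannot exclude it. With the replicate block the adjusted p of Psma7 was 0.0542, of Psmd13 0.0904, of Syvn1 0.0467 and of Uchl5 0.0390 (limma). Of the 2 Psmf1 probe set calls, 1 was lost (adjusted p = 0.0776) and 1 stayed (0.0489). Psma8 and Psmb11 lay near the level filter, where signal limits what can be seen. Differences of genes that were not called changed sign as follows. After another quantile normalization these were Psma4 -0.013, Psmb6 -0.063, Psmc4 -0.13, Psmc5 -0.14, Psmc6 -0.045, Psmd12 -0.021, Psmd2 -0.10, Psmd3 -0.034 and Psme3 -0.032. After cyclic loess these were Psma4 -0.040, Psmb6 -0.098, Psmc4 -0.12, Psmc5 -0.13, Psmc6 -0.030, Psmd11 -0.0070, Psmd12 -0.018, Psmd2 -0.090 and Psmd3 -0.031. With array weights these were Psma5 0.0060, Psmd4 0.028, Psmd6 0.0099, Psme4 0.0028 and Pomp 0.0062. After median centring these were Psma5 0.032, Psmd4 0.031, Psmd6 0.011, Psme4 0.010, Psmg3 0.040 and Pomp 0.031. With the mean of the probe sets these were Psme3 -0.096 and Psmg4 -0.035. With probe sets without a suffix it was Psme4 0.088. With 1 array left out the ranges were Psma5 -0.051 to 0.0092, Psma8 -0.070 to 0.12, Psmc3ip -0.13 to 0.0029, Psmc4 -0.077 to 0.11, Psmc5 -0.016 to 0.020, Psmd4 -0.066 to 0.059, Psmd6 -0.11 to 0.060, Psme4 -0.091 to 0.018, Psmg3 -0.045 to 0.045 and Pomp -0.068 to 0.048.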
